A study of Mus musculus with 4 samples.

Results

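The p53 pathway was examined in a pair of irradiated mouse stromal lines, OP9M2 and BFC012, through 38 genes: p53 itself (Trp53), its regulators and relatives, and genes that p53 is known to switch on. The members were chosen as a list of genes by name, with earlier results of these data known. They were measured by all probe sets that the annotation of the Affymetrix mouse 430 2.0 array assigned to a single member gene. Of the 38 listed genes, 35 were measured, by 72 of the 45037 probe sets tested, among 18193 genes in all. Trp53, Bax and Gdf15 had no such probe set in the annotation used and were not analysed here. OP9M2 is a clone of OP9 stroma with the character of mesenchymal stem cells, is described in its labels as supportive of blood progenitors, and was grown in 20% serum. BFC012 consists of fetal liver fibroblasts, is described as non-supportive, and was grown in 10% serum, so that line and serum cannot be told apart. Cells of both lines received 2000 rad and were plated, 48 hours ahead of harvest, at a density of 25000 per square centimetre, and total RNA of one 10 cm plate was purified for each array. Each line had 2 arrays, described as biological replicates, and the p-values rest on the spread between these arrays only. For each probe set, limma moderated that spread with the spread of all probe sets. All 4 cultures were irradiated. Every value is therefore a level after irradiation and every difference is one between irradiated lines, not an induction, and fewer cells expressing a gene cannot be told apart from less RNA per cell.

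The protein p53 is a transcription factor that is kept scarce in undamaged cells, since Mdm2 binds it and marks it for degradation. Breaks in DNA activate the kinases Atm and Chek2, which release p53 from Mdm2, and stabilized p53 then binds a pair of half-sites in the DNA of its target genes. The targets include inhibitors of p53 itself, which close a feedback loop, and genes of cell death, growth arrest, nutrient sensing and DNA repair. In stromal cells irradiation is used to stop division before co-culture.

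Promoter sequences were available for 27 of the 35 measured members in the RefSeq promoter table of assembly GRCm38.p6, as windows from 250 bases before to 50 bases after a start site. The consensus p53 half-site, 10 bases long and the same on both strands, was found in a window of 10 members (37.0%), against 9.55% of the 27025 genes in the table. These members were Aen, Ccng1, Ddit4l, Ei24, Gadd45a, Mdm2, Polk, Ppm1d, Rps27l and Sesn1. A match is a description of the letters and not evidence of binding. The upstream 250 bases of Ppm1d, Ei24 and Ddit4l are printed because these 3 were both lower in OP9M2 and held the half-site, which is in capitals. All sequences run 5′ to 3′ in the direction of the gene, and the last base printed for these 3 lies next to the start site.

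Ppm1d, chr11:85311004-85311253, plus strand: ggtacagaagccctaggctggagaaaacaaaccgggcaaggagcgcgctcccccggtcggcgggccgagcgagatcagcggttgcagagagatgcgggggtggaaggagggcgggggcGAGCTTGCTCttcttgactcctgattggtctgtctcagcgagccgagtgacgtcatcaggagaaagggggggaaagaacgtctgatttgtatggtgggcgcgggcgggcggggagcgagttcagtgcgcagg
Ei24, chr9:36797335-36797584, minus strand: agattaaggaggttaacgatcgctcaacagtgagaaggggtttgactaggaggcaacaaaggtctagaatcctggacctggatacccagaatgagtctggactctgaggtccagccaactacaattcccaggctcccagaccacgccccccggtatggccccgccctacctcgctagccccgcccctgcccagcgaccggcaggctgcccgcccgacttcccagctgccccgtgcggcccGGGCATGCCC
Ddit4l, chr3:137623422-137623671, plus strand: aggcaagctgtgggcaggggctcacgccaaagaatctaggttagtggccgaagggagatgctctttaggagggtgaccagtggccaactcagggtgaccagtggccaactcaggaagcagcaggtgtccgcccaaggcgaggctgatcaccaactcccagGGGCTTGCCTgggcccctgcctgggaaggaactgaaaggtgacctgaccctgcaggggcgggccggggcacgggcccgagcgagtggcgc

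The half-site began 132 bases before the start of Ppm1d, 90 before that of Ddit4l and 10 before that of Ei24. Pairs of half-sites, which are the form that p53 binds, were searched as 20 bases with at most 1 mismatch and a gap of at most 13 bases. Such a pair was present in windows of Ccng1 and Rps27l only (7.41% of the members with a window), against 0.718% of all genes in the table. Stretches of 100 bases around these pairs, in capitals, are printed with that around the half-site of Mdm2, since these are well-known targets that did not pass the test between the lines.

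Ccng1, chr11:40755422-40755521, minus strand: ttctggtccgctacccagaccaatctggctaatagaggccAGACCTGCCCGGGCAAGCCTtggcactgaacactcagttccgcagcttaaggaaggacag
Rps27l, chr9:66946256-66946355, plus strand: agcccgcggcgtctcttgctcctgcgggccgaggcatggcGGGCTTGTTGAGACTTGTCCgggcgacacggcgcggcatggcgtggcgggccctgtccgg
Mdm2, chr10:117710890-117710989, minus strand: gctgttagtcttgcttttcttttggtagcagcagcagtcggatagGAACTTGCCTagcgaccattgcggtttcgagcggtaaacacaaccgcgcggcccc

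Both half-sites of each pair lay directly next to each other. Of the 7 members that were lower in OP9M2 and had a window, 3 held a half-site, and 7 of the 20 other members with a window did.

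The comparison of OP9M2 with BFC012 addressed how the supportive and the non-supportive line differ, here in the pathway that answers irradiation. Of the 35 measured members, 9 were lower in OP9M2 and none was higher. The 9 were Perp, Ddit4l, Eda2r, Apaf1, Ddb2, Ei24, Ercc5, Tigar and Ppm1d, and they came from cell death, nutrient sensing, DNA repair and feedback regulation. Perp was at least 56.0-fold lower, and the other 8 were 2.39-fold to 5.41-fold lower. The 9 made up 25.7% of the measured members, where 3.56% of all genes were lower and 2.36% were higher. Over probe sets, 12 of the 72 (16.7%) were lower and 0 were higher, against 2.66% and 1.8% of all probe sets. With limma, 18 members had an unadjusted p under 0.05 with lower values in OP9M2 and 2 (Casp8 and Trp73) with higher values, where 12.8% and 10.5% of all genes did. The median difference over the members, OP9M2 minus BFC012 on the log2 scale, was -0.66, against 0.03 over all genes, and 29 of the 35 differences were negative (82.9%), against 45.3% of all genes. Without the 9 genes the median of the other 26 was -0.40. Genes of other lists described below were mostly negative too: 76.9% of those upstream of p53, 73.1% of other targets, 69.0% of relatives and 75% of proliferation genes. In the cell type lists the share ran from 0% to 100%. All genes also included 5889 that were above the background level on no array, against 2 of the 35 members.

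A gene was counted as lower or higher at an adjusted p under 0.05 in limma, with Benjamini-Hochberg adjustment over all 45037 probe sets, and a difference of at least 1 on the log2 scale, which is 2-fold. Deposited values were turned into log2 values by their natural logarithm, the reading that put them in the range of RMA output, and a gene's value was that of its probe set with the highest mean. The background level, 6.09 on this scale, was the level that 95% of the values of 81 probe sets for odorant and related receptors did not exceed. Of the 35 members, 32 were above it on all arrays, Trp73 and Pmaip1 on none, and Perp on the BFC012 arrays only. Values of different genes are not comparable with each other, since each probe set has its own brightness.

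OP9M2 replicate 2 stood apart in its poly-A spike controls, whose median over 24 probe sets was 3.66 there and 6.12 to 6.97 on the other arrays. The OP9M2 arrays also differed more from each other (2842 probe sets at least 1 apart, Pearson r = 0.980 across probe sets) than the BFC012 arrays (291, r = 0.994). With either OP9M2 array left out, the line had a single array and the spread came from the close BFC012 arrays alone, so that the lone array was assumed to vary like them. Without OP9M2 replicate 2 the 9 genes and Mdm2, Gadd45b and Tnfrsf10b were counted as lower, while the share of all genes counted as lower rose to 6.26%. Without OP9M2 replicate 1 the 9 genes and Fas, Btg2 and Trp53inp1 were, and the share of all genes rose to 5.41%. When either BFC012 array was left out, the spread came from the OP9M2 arrays alone, and no gene at all passed the threshold in limma. The differences themselves moved little: without BFC012 replicate 1 or 2, Perp was at -8.37 and -7.77 and Ppm1d at -1.35 and -1.16. All 9 kept their sign whichever array was left out. That was fixed in advance, since both OP9M2 arrays lay below both BFC012 arrays for each of the 9.

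**Figure D1:**
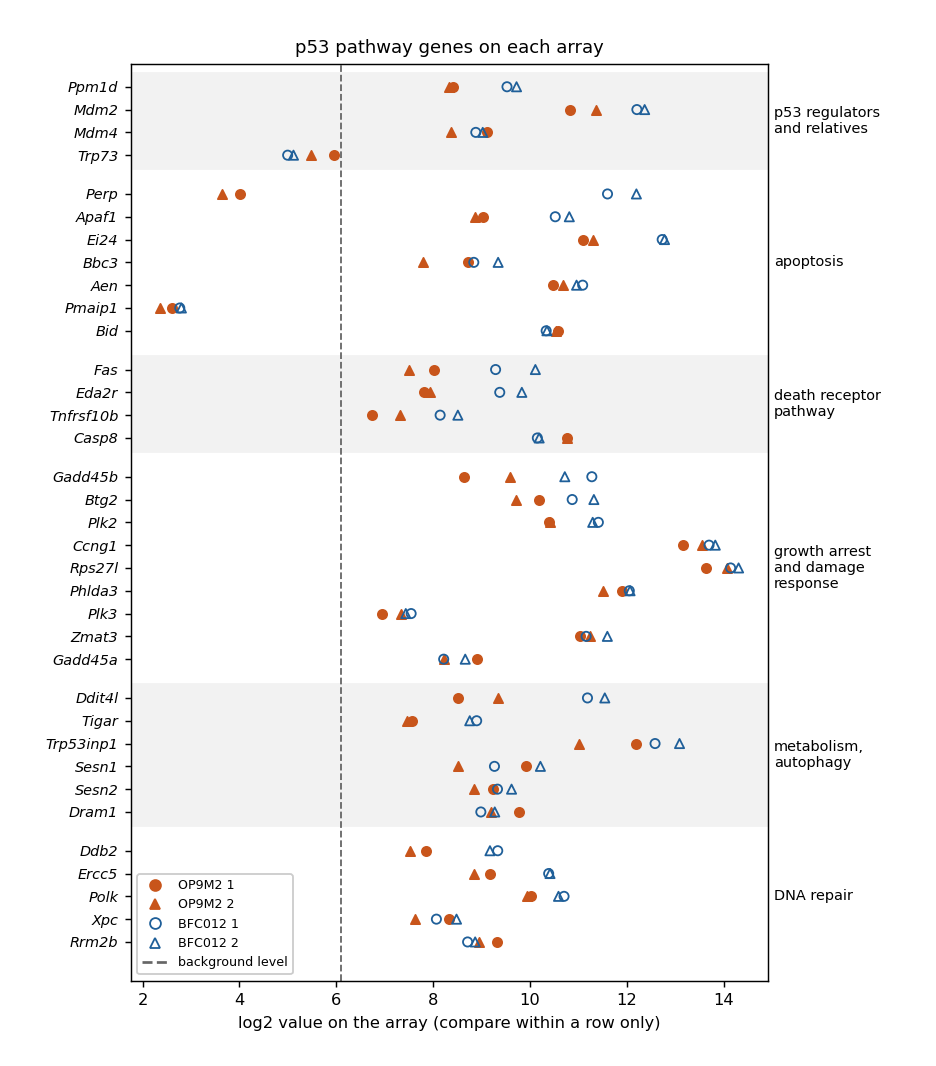
The log2 value of each of the 35 measured members on every array, with genes as rows grouped by role, OP9M2 arrays as filled orange and BFC012 arrays as open blue symbols, and the background level (6.09) as a dashed line. In 25 rows both OP9M2 arrays lie below both BFC012 arrays and in 4 rows above, and Perp is the only gene on opposite sides of the background level in the 2 lines.

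The regulators and relatives of p53 comprised 4 measured genes, of which 1 was lower in OP9M2 (median difference -0.70). Ppm1d encodes the phosphatase Wip1, which removes activating phosphates from p53 and its kinases. Its values were 8.42 and 8.32 in OP9M2 and 9.53 and 9.72 in BFC012. Both OP9M2 arrays lay below both BFC012 arrays, by far more than the arrays of a line differed. The difference was -1.25 ± 0.15 (SE), or 2.39-fold lower (limma adjusted p = 0.0226), and a further probe set of Ppm1d gave -1.15 (adjusted p = 0.0937).

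Mdm2, the ubiquitin ligase that holds p53 in check and is itself a p53 target, read 10.83 and 11.36 in OP9M2 and 12.21 and 12.37 in BFC012. The lines did not overlap, but the OP9M2 arrays lay further apart than those of BFC012. The difference of -1.20 ± 0.22 did not pass the test (limma adjusted p = 0.0677), and its 95% interval ran from -1.79 to -0.60. The difference was -1.46 without OP9M2 replicate 2 and -0.93 without OP9M2 replicate 1. With all probe sets of Mdm2 averaged, among them a set below background on every array, it was -0.79 (limma adjusted p = 0.249). A further probe set above background gave -1.65 (limma adjusted p = 0.199).

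Mdm4, the partner that binds p53 without degrading it by itself, read 9.11 and 8.37 in OP9M2 and 8.88 and 9.03 in BFC012. The lines overlapped, with the highest and the lowest value both in OP9M2, and the difference was -0.21 ± 0.28 (limma adjusted p = 0.777). Its sign turned without OP9M2 replicate 2 (0.16). Trp73, a relative of p53, was below background on all arrays, so no fold is given.

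The apoptosis genes held the largest difference of the set, and 3 of the 7 measured were lower (median -0.83). Perp encodes a membrane protein that promotes cell death downstream of p53 and is also a component of desmosomes, the junctions that hold epithelial sheets together. It read 4.02 and 3.64 in OP9M2 and 11.60 and 12.20 in BFC012. It was thus below background on both OP9M2 arrays and far above it on both BFC012 arrays. The measured difference was -8.07 ± 0.27 (limma adjusted p = 0.00148), which is at least 56.0-fold when OP9M2 is set at the background level. Perp rested on 1 probe set.

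Apaf1, the scaffold on which caspase 9 is activated once cytochrome c leaves the mitochondria, read 9.03 and 8.86 in OP9M2 and 10.52 and 10.81 in BFC012. All values were above background and the lines were clearly separate. The difference was -1.72 ± 0.17, or 3.30-fold lower (limma adjusted p = 0.0146), and a further probe set gave -1.92 (limma adjusted p = 0.0598). Ei24, an endoplasmic reticulum membrane protein first found as a gene induced by etoposide through p53, read 11.10 and 11.31 in OP9M2 and 12.73 and 12.78 in BFC012. Here the arrays of a line lay close together. The difference was -1.55 ± 0.15, or 2.93-fold lower (limma adjusted p = 0.0131).

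The BH3-only killers did not follow Perp and Apaf1 in passing the test. Bbc3, which encodes Puma, had means of 8.26 in OP9M2 and 9.09 in BFC012 (difference -0.83 ± 0.38, limma adjusted p = 0.341). Pmaip1, which encodes Noxa, was below background on every array. Bid, which links death receptors to mitochondria, had means of 10.57 and 10.34 (difference 0.22, limma adjusted p = 0.453), and all 3 of its probe sets had positive differences. The nuclease gene Aen had means of 10.58 and 11.03, and its 4 probe sets had differences between -0.74 and -0.40.

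Of the 4 genes of the death receptor pathway, 1 was lower (median -1.51). Eda2r, a receptor of the tumor necrosis factor family that binds ectodysplasin A2, read 7.82 and 7.93 in OP9M2 and 9.38 and 9.83 in BFC012. The lines did not overlap, and the arrays of OP9M2 were nearly equal. The difference was -1.73 ± 0.20, or 3.32-fold lower (limma adjusted p = 0.0223).

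Both other receptors had differences of similar size that did not pass the test. Fas, the receptor for Fas ligand, had means of 7.76 in OP9M2 and 9.70 in BFC012 (difference -1.94 ± 0.34, limma adjusted p = 0.0598, 95% interval -2.86 to -1.03). On all 4 arrays Fas was counted as lower when low probe sets were left out or probe sets were averaged by gene. It was also lower with the replicate numbers crossed as a block, but not with the replicate number itself as a block (limma adjusted p = 0.177). Tnfrsf10b, the mouse receptor for the death ligand TRAIL, had means of 7.03 and 8.33 (difference -1.30 ± 0.26, limma adjusted p = 0.0784). Casp8, the initiator caspase that acts below these receptors, had the opposite sign: its means were 10.77 and 10.17 (difference 0.60 ± 0.13, limma adjusted p = 0.0912), with both OP9M2 arrays above both BFC012 arrays.

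None of the 9 measured genes of growth arrest and damage response was counted as lower or higher (median -0.38; limma, unadjusted p under 0.05 for 3, all with lower values in OP9M2). Plk2, a polo-like kinase, came closest, with values of 10.38 and 10.41 in OP9M2 and 11.41 and 11.30 in BFC012. Its arrays were tightly grouped within each line and the lines were separate. Its adjusted p of 0.0352 in limma was under the threshold, but its difference of -0.96 ± 0.13 stayed just short of 2-fold. Plk2 was counted as lower when log2 of the deposited value was taken instead, which enlarges differences 1.44-fold.

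Gadd45b, a stress sensor that binds and activates a kinase of the p38 and JNK pathways, had means of 9.12 in OP9M2 and 11.00 in BFC012 (difference -1.88 ± 0.39, limma adjusted p = 0.0852), and its 3 probe sets ran from -1.88 to -0.98. Its relative Gadd45a had means of 8.57 and 8.44, with overlapping lines and a difference of 0.12 ± 0.30 (limma adjusted p = 0.888). Btg2, an antiproliferative protein of the mRNA deadenylation machinery, had means of 9.96 and 11.10 (difference -1.14 ± 0.25, limma adjusted p = 0.0981).

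The targets whose windows held a pair of half-sites had small differences on their probe sets with the highest mean. Ccng1, which encodes cyclin G1, had means of 13.35 in OP9M2 and 13.76 in BFC012 (difference -0.42 ± 0.19, limma adjusted p = 0.338), although its other probe sets gave -1.07 and -1.10. Rps27l, a ribosomal protein relative, had means of 13.85 and 14.23, and its 3 probe sets gave differences between -0.43 and -0.38. The Akt inhibitor Phlda3, the kinase Plk3 and the RNA-binding protein Zmat3 had differences of -0.36, -0.35 and -0.25. None of these 3 passed the test (limma adjusted p of 0.404, 0.416 and 0.617).

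**Figure D2:**
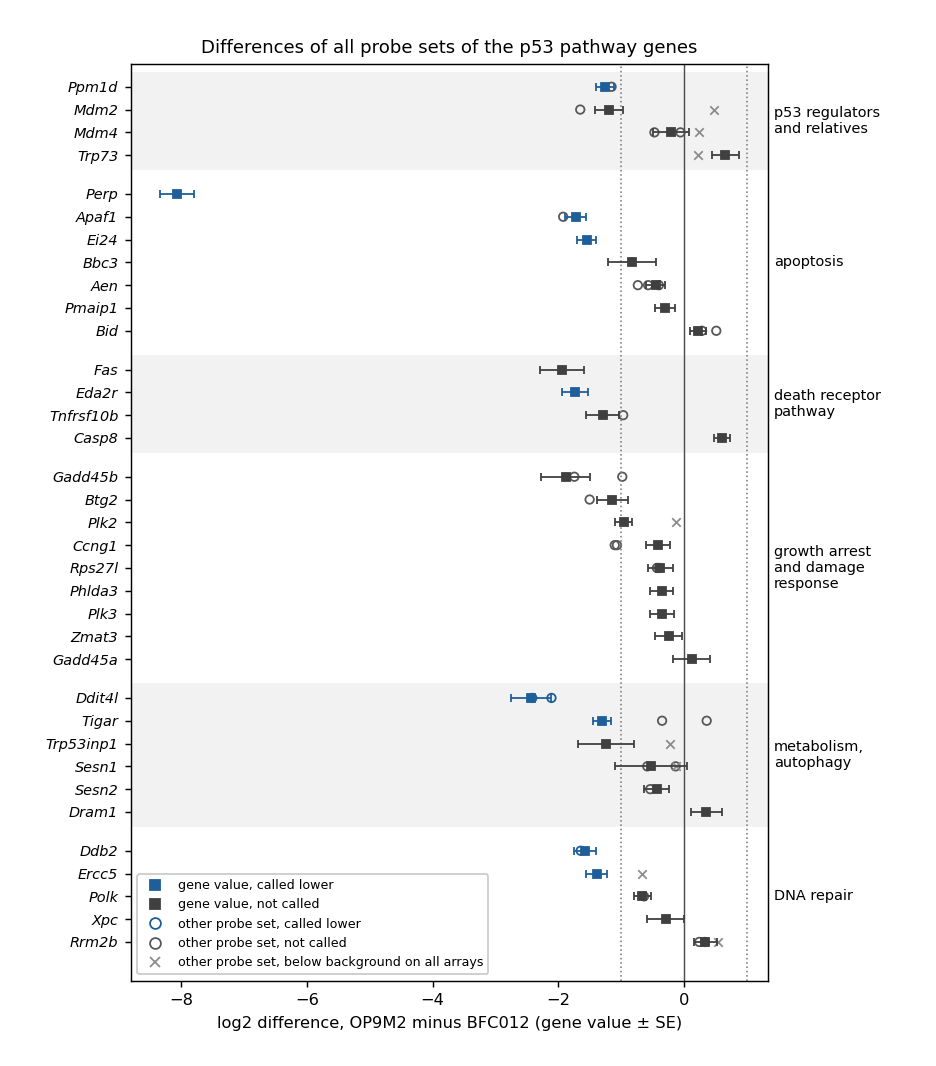
The log2 difference, OP9M2 minus BFC012, of all 72 probe sets of the 35 members, with the gene's value as a square with its SE, further probe sets as circles (crosses where no array was above background) and dotted lines at the 2-fold limit. The 12 probe sets in blue were lower in OP9M2, all others were not counted as lower or higher, and Perp at -8.07 lies far from the next gene, Ddit4l at -2.44.

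In the group of metabolism and autophagy genes, 2 of the 6 were lower (median -0.88). Ddit4l, an inhibitor of the growth kinase complex mTORC1, read 8.52 and 9.34 in OP9M2 and 11.19 and 11.55 in BFC012. The OP9M2 arrays lay further apart than those of BFC012, yet both were well below them. The difference was -2.44 ± 0.32, or 5.41-fold lower (limma adjusted p = 0.0306). All 3 probe sets of Ddit4l were counted as lower, the others at -2.11 and -2.42 (limma adjusted p of 0.0302 and 0.0265).

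Tigar, a phosphatase that lowers the flow through glycolysis, read 7.57 and 7.47 in OP9M2 and 8.90 and 8.76 in BFC012. On this probe set the arrays of each line were close and the lines separate, with a difference of -1.31 ± 0.14, or 2.48-fold lower (limma adjusted p = 0.0185). The further probe sets disagreed with it, at -0.35 (limma adjusted p = 0.266) and 0.36 (limma adjusted p = 0.330). Tigar was the only one of the 18 members with several probe sets above background on some array in which they differed in sign, and it was not counted as lower when the probe sets of a gene were averaged.

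The sestrins, which also restrain mTORC1, had differences of -0.53 ± 0.58 (Sesn1, limma adjusted p = 0.715) and -0.44 ± 0.20 (Sesn2, limma adjusted p = 0.354). For Sesn1 the lines overlapped, from 8.51 to 9.92 in OP9M2 and from 9.27 to 10.22 in BFC012. Trp53inp1, a nuclear protein that promotes p53 activity and autophagy, ranged from 11.01 to 12.19 in OP9M2 and from 12.58 to 13.09 in BFC012 (difference -1.24 ± 0.45, limma adjusted p = 0.242). Dram1, a lysosomal membrane protein of autophagy, had overlapping lines and a difference of 0.36 ± 0.25 (limma adjusted p = 0.543). Sesn1 and Trp53inp1 were the only members whose OP9M2 arrays differed by at least 1.

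Among the 5 DNA repair genes, 2 were lower (median -0.66). Ddb2, which recognizes ultraviolet lesions in chromatin for nucleotide excision repair, read 7.84 and 7.51 in OP9M2 and 9.34 and 9.17 in BFC012. The lines were separate by more than a log2 unit. The difference was -1.58 ± 0.18, or 2.98-fold lower (limma adjusted p = 0.0203), and its further probe set was counted as lower too (-1.65, limma adjusted p = 0.0295). Ercc5, the endonuclease Xpg that cuts on the 3′ side of the lesion, read 9.17 and 8.84 in OP9M2 and 10.39 and 10.41 in BFC012. Its BFC012 values were almost identical, and the difference was -1.39 ± 0.17, or 2.62-fold lower (limma adjusted p = 0.0247). A further probe set of Ercc5 was below background on all arrays, and averaged with it the gene was not counted as lower.

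The other repair genes did not pass the test. Xpc, which recognizes distorted DNA ahead of excision repair, had overlapping lines (difference -0.29 ± 0.30, limma adjusted p = 0.691). Polk, a polymerase that copies past damaged bases, had means of 9.99 in OP9M2 and 10.65 in BFC012 (difference -0.66 ± 0.14, limma adjusted p = 0.0841). Rrm2b, a subunit of the reductase that makes deoxynucleotides for repair, had means of 9.13 and 8.79, and all 4 of its probe sets had positive differences, between 0.24 and 0.55.

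Across the set, both OP9M2 arrays lay below both BFC012 arrays for 25 of the 35 members (71.4%), where 24.8% of all genes did, and above them for 4 (11.4%), where 28.4% did. The 4 were Casp8, Bid, Rrm2b and Trp73. In the lists described below, the genes below and above numbered 12 and 3 of 26 upstream genes and 10 and 6 of 26 other targets. They numbered 13 and 5 of 29 relatives of the members and 4 and 1 of 16 proliferation genes. The median distance between the arrays of a line was 0.39 for the members in OP9M2 and 0.17 in BFC012. OP9M2 replicate 1 was above replicate 2 for 23 of the 35 members, and BFC012 replicate 1 was below replicate 2 for 28.

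**Figure D3:**
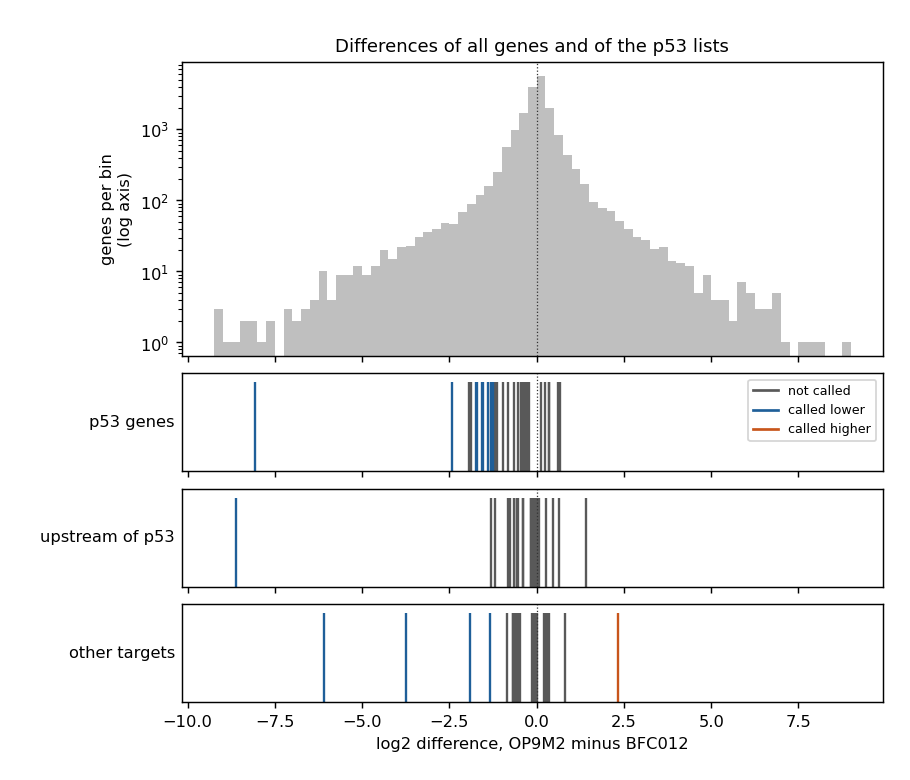
The number of genes per bin of the log2 difference, OP9M2 minus BFC012, for all 18193 genes (top, log axis), over 1 line per gene for the 35 members, the 26 measured genes that act upstream of p53 and 26 other targets. Most members lie to the left of 0 (29 of 35), the 9 in blue were lower in OP9M2, and 1 other target, Steap3 in orange, was higher.

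Of 26 measured genes that act upstream of p53, 1 was lower (3.85%) and none higher, with a median of -0.28. That gene was Cdkn2a, which encodes p19Arf, the inhibitor of Mdm2, and the cell cycle inhibitor p16. Cdkn2a read 4.07 and 4.34 in OP9M2 and 12.74 and 12.88 in BFC012. Like Perp, it was below background on both OP9M2 arrays and far above it in BFC012, and it was at least 105-fold lower (difference -8.61 ± 0.16, limma adjusted p = 0.00105).

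The damage kinases did not pass the test. Atm, the kinase that senses double-strand breaks, had a difference of -0.80 ± 0.23 (limma adjusted p = 0.167), and Chek2, which it activates, had -1.19 ± 0.21 (limma adjusted p = 0.0581). Chek2, which has 1 probe set, was counted as lower on all 4 arrays when low probe sets were left out (limma adjusted p = 0.0485) or when the fit was made over genes with their probe sets averaged (limma adjusted p = 0.0433). Both kinases were also counted as lower without OP9M2 replicate 2, where only the BFC012 arrays give the spread. Trp63, the relative of p53 known from epithelial stem cells, had a difference of 1.40 ± 0.23 (limma adjusted p = 0.0509), and it was counted as higher when the values were quantile normalized, when low probe sets were left out or with a variance trend in limma. The other 22 genes of this list, which included the cofactors Ep300 and Crebbp and the kinase Atr, had differences between -1.30 and 0.65.

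Of 26 other known p53 targets, 4 were lower (15.4%) and 1 was higher, with a median of -0.07. Thbs1, the matrix protein thrombospondin 1 that inhibits blood vessel growth, read 6.91 and 8.24 in OP9M2 and 13.75 and 13.61 in BFC012. It was lower by 6.10 ± 0.46 on the log2 scale, or 68.8-fold (limma adjusted p = 0.00759), and the size depended on the OP9M2 array: 43.5-fold without replicate 1 and 108.9-fold without replicate 2. Lif, a cytokine that acts on stem cells, read 6.27 and 6.18 in OP9M2, just above background, and 9.81 and 10.14 in BFC012. It was lower by 3.75 ± 0.17 (13.5-fold, limma adjusted p = 0.00239). A further probe set of Lif was below background on all arrays and was not counted as lower. Gtse1, a microtubule protein that also moves p53 out of the nucleus, was lower by 1.90 ± 0.27 (limma adjusted p = 0.0374). Pml, the organizer of nuclear bodies, was lower by 1.33 ± 0.14 (limma adjusted p = 0.0171), while a second probe set above background gave -0.40 (limma adjusted p = 0.470).

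Steap3, a metalloreductase of iron uptake, went the other way, at 9.03 and 8.56 in OP9M2 against 6.48 and 6.42 in BFC012. It was 5.07-fold higher (difference 2.34 ± 0.20, limma adjusted p = 0.0105). Both further probe sets of Steap3 were counted as higher too, at 1.76 and 1.91 (limma adjusted p of 0.0449 and 0.0122). They were at or below background, but for 1 OP9M2 array of the latter. Cdkn1a, which encodes the cell cycle inhibitor p21 and is the best known target of p53, read 12.66 and 12.22 in OP9M2 and 13.01 and 13.08 in BFC012. It was above background on every array with the lines separate, and its difference of -0.60 ± 0.19 did not pass the test (limma adjusted p = 0.202, 95% interval -1.12 to -0.08).

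**Figure D4:**
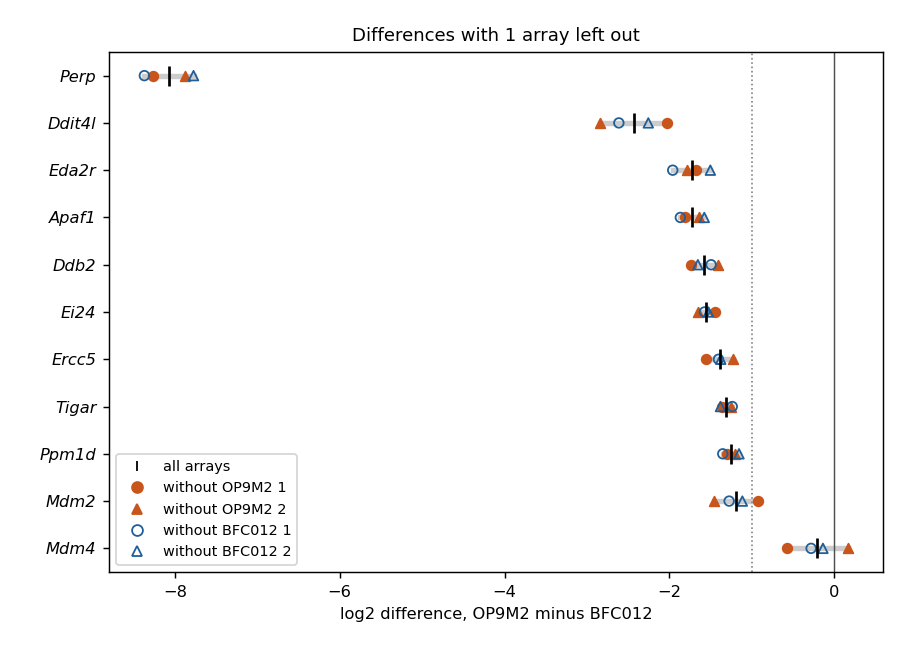
The log2 difference, OP9M2 minus BFC012, of the 9 genes that were lower, Mdm2 and Mdm4, with all arrays (black bar) and with each array left out in turn (orange filled symbols for OP9M2, open blue for BFC012; the dotted line is the 2-fold limit). The 9 genes stay beyond the 2-fold limit throughout, Ddit4l moves most in size (-2.84 to -2.03), and Mdm4 crosses 0.

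Marker lists of other cell types and of proliferation moved with the lines to different degrees. Of 16 measured desmosomal and epithelial genes, 6 were lower in OP9M2 (Cdh1, Dsp, Krt7, Jup, Krt14 and Pkp1, differences from -4.56 to -1.73) and none was counted as higher. Pkp2 had the opposite sign, at 9.66 and 10.39 in OP9M2 and 8.24 and 7.60 in BFC012 (difference 2.10, limma adjusted p = 0.0515), as did Epcam (0.94, limma adjusted p = 0.307), while Krt18, Dsg2, Dsc2 and Dsc3 were above background on no array. The summed linear level of that list, in which the brightest genes weigh most, was 2691 to 3190 in OP9M2 and 2974 to 3432 in BFC012. The mean log2 value of the list was 5.96 to 6.05 in OP9M2 and 6.89 to 6.90 in BFC012. Of 6 mesothelial genes, 5 were lower (Bnc1, Upk3b, Upk1b, Lrrn4 and Wt1). The sum was 306 and 1248 on OP9M2 replicates 1 and 2 and 9147 to 10867 in BFC012. The remaining gene, Msln, differed widely between the OP9M2 arrays, at 6.56 and 10.00, against 10.19 and 10.48 in BFC012. Its difference of -2.05 did not pass the test (limma adjusted p = 0.443). Of 5 fat cell genes, 3 were higher (Fabp4, Lpl and Pparg). The sum was 38952 and 15178 on OP9M2 replicates 1 and 2, against 217 to 262 in BFC012. Adipoq differed widely between the OP9M2 arrays, at 12.84 and 5.41, and was below background in BFC012. Its difference of 5.44 did not pass the test (limma adjusted p = 0.343). Of 16 proliferation genes none passed the test in limma (2 at an unadjusted p under 0.05, both with lower values in OP9M2), and the sum was 30738 and 58574 on the OP9M2 arrays and 57564 and 46753 on the BFC012 arrays. Among 11 mesenchymal markers, Col1a2 was higher and Eng lower in OP9M2, and Thy1 was above background on no array. Col1a2, a chain of type I collagen, was near background in BFC012 (6.18 and 6.07), whereas the other chain, Col1a1, read 13.06 and 13.12 there, and Col3a1 and Sparc were also well above background in both lines. Pdgfra and Pdgfrb had differences of 3.37 and 2.18 that did not pass the test (limma adjusted p of 0.0513 and 0.109). The part of these cell type differences in the values of Perp and the other p53 genes was not tested.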

How the data were processed

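The authors deposited an intensity for every probe set of each array, made with RMA and affy according to the processing notes, and the methods gave Bioconductor 2.7. RMA removes background and normalizes between arrays, so a shift shared by most genes would not be seen. Up to 6.57% of the values of an array exceeded 65535, the scanner's limit, while their natural logarithms lay between 2.06 and 14.9. The natural logarithm was therefore taken as the RMA log2 value. The base was not stated, and log2 of the deposited value, which enlarges differences 1.44-fold, was an alternative. Deposited medians were 430 to 451.

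Of 45101 probe sets, 64 controls were left out, and 34945 of the rest named 1 gene. Lines were compared with limma 3.58.1 (lmFit and eBayes, 2 arrays against 2, no covariate, two-sided) in R 4.3.3, checked on simulated data. The number of arrays limits the precision. Alternatives were other scaling, filtering, variance and gene summaries, a replicate block and leaving out each array. The members and lists were chosen with earlier results of these data known. All members were to be named, those counted as lower or higher and Mdm2 and Mdm4 with each array's value, and of the related lists the genes that passed, with Cdkn1a, Cdkn2a, Trp63, Atm and Chek2.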

Additional observations from a re-analysis of the deposited data

How the results depend on the processing

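The 9 genes kept their negative sign under every alternative run, but for most runs this was fixed in advance. Both OP9M2 arrays lay below both BFC012 arrays for each of the 9, so leaving out 1 array could not turn the sign. The other log base, the filter, the variance trend, the blocks and the call rule could not turn it either. No member was counted as higher under any alternative on all 4 arrays (with limma, 1 or 2 at an unadjusted p under 0.05). The number counted as lower was 8 to 10 under the other scalings, filter, variance trend, call rule and gene summary. Leaving out 1 array moved it between 0 and 12: it was 12 when either OP9M2 array was left out and 0 when either BFC012 array was, since no gene at all passed then. The share of all genes counted as lower moved likewise, from 3.56% to 5.41% and 6.26% without OP9M2 replicate 1 and 2, and the array left alone in a line was assumed to vary like those of the other line. With low probe sets left out, 10 of the 33 members kept were lower, against 5.80% of genes. The replicate numbers do not pair the samples by label, and the deviations of same-numbered arrays had a correlation of -0.10 across probe sets. With the replicate number as a block, 1.54% of all genes, 2 members (Perp and Ddit4l) and 3 genes of the upstream and other target lists were lower, where 5 of those lists were lower otherwise. With the numbers crossed, a pairing chosen after seeing the data, 5 members were lower, against 2.50% of all genes. Of the 9 genes only Apaf1, Perp and Ei24 were among them, beside Fas and Gadd45b. In those lists 2 genes instead of 1 were higher with quantile normalization, the filter on low values or the variance trend, and with 1 array left out 0 to 2 were higher and 0 to 9 lower. The sign of 4 uncalled differences turned when an array was left out: Mdm4 (-0.58 to 0.16), Gadd45a (-0.21 to 0.46), Sesn1 (-1.23 to 0.17) and Xpc (-0.64 to 0.057). The cause of these changes was not tested. At the 99th percentile of the same receptor genes as background (6.84), 31 instead of 32 members were above it on all arrays.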

Other observations

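Of 29 measured relatives of the members that were not themselves listed, 1 was lower in OP9M2 (3.45%) and none was higher, with a median difference of -0.29. Tnfrsf21, a death domain receptor related to Fas and Tnfrsf10b, read 7.66 and 6.09 in OP9M2 and 10.11 and 10.63 in BFC012, and its adjusted p of 0.0497 in limma lay just under the threshold. Its fold was 11.3 with all arrays, 19.4 without OP9M2 replicate 1 and 6.53 without OP9M2 replicate 2, and it was not counted as lower when either BFC012 array was left out. Ddit4, the closest relative of Ddit4l, had a difference of -1.35 (limma adjusted p = 0.0530). Btg1, the relative of Btg2, had a difference of 1.42 (limma adjusted p = 0.0702), opposite in sign to that of Btg2. The anti-apoptotic genes Bcl2, Bcl2l1 and Mcl1 had differences of -0.14, -0.70 and -0.42, none past the test.

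Markers of blood and liver cells were mostly below background in both lines. Of 8 macrophage genes 5 were above it on no array, as were 6 of 7 endothelial genes and 4 of 6 hepatocyte genes, and none of the 3 lists held a gene that was lower or higher (limma, 0 to 1 gene in each direction at an unadjusted p under 0.05).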
